A study of Saccharomyces cerevisiae with 32 samples.

Results

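Class II PDZ ligands end in a hydrophobic residue, any residue and a hydrophobic residue. In the C-terminal CRIPT library of this series, 9803 peptides of 101553 without a stop codon fitted that pattern (9.65%). They were chosen by sequence alone: A, V, I, L, M, F, Y or W at CRIPT position 6, V, I, L, F or M at position 8 (the last residue), and any residue at positions 5 and 7. In the numbering that sets the last residue to 0, positions 6 and 8 are positions -2 and 0. The rule allows 16000 peptides, so 61.3% of them had a value.

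The study fused PDZ3, one of the PDZ domains of the postsynaptic scaffold PSD95, and the tail of its ligand CRIPT to fragments of a methotrexate-resistant enzyme in yeast of strain BY4741. Binding restores the enzyme, so growth in methotrexate reads out binding; this description of the assay is background. Each library was grown in 3 biological replicates for 5 generations without drug (input) and then about 5 generations with 200 µg/mL methotrexate (output). The C-terminal library kept CRIPT positions 1 to 4 as K, N, Y and K and varied the 4 positions after them, with PDZ3 as wild type. The same peptides were also read in the pairwise CRIPT library, with 1 or 2 of the 8 positions changed, and in the PDZ3-CRIPT library, with 1 substitution in PDZ3 and 1 in CRIPT. Each table gives 1 fitness score and 1 error per sequence, merged over replicates by the authors, so values for single replicates are not given and the depth behind each score is unknown. The value after ± is the authors' error. The wild-type tail lies near 0 and sequences with a stop codon lie near -1 in the C-terminal table, so a lower score is slower growth with drug.

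PDZ domains bind the last residues of a partner protein as an added strand between a β-strand and an α-helix. The side chain at position 0 sits in a hydrophobic pocket and the side chain at position -2 faces the start of the helix. Class I domains, to which PDZ3 belongs, carry a histidine there and take S or T at position -2. Class II domains usually carry a hydrophobic residue there and take a hydrophobic residue at position -2.

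The sequences on which the results turn are the wild-type tail, the 9 class II peptides that stayed above the stop level both with Bonferroni adjustment and with the spread of the stop rows added to the error, and the 3 with the highest scores. Residues are in one-letter code from the amino to the carboxyl end, and all come from the deposited table.
Wild-type CRIPT tail, class I: KNYKQTSV
E5 with Y6: KNYKEYSV
E5 with L6: KNYKELSV
E5 with I6 and T7: KNYKEITV
E5 with I6 and P7: KNYKEIPV
E5 with A6: KNYKEASV
E5 with A6 and Q7: KNYKEAQV
S5 with I6 and T7: KNYKSITV
T5 with V6: KNYKTVSV
S5 with A6 and R7: KNYKSARV
E5 with I6 and I8, highest score: KNYKEISI
M5 with I6, E7 and L8: KNYKMIEL
N5 with A6, N7 and M8: KNYKNANM

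Nearly all class II peptides grew like stop codon variants. The wild-type tail scored -0.00849 ± 0.0549, and the median of the 16170 stop rows was -1.001, with the middle 50% of them between -1.05 and -0.947. The 9803 class II peptides had a median of -1.04 and ranged from -1.34 to -0.405. Of these, 7644 (78.0%) lay below the stop median. The median of all rows without a stop was -1.03. Stop rows themselves depended on where the stop fell, from a median of -0.977 with the stop at position 5 to -1.03 with the stop at position 8.

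A peptide was called above the stop level when its score minus the stop median, divided by the error, passed a two-sided normal test at a Benjamini-Hochberg adjusted p under 0.05 over all rows without a stop, which took a ratio of about 3.14. With scores merged from 3 replicates the normal test is an approximation, so the ratio to the error is given below in place of single p-values. By this test 69 class II peptides (0.704%) were called above, against 3.42% of all rows without a stop. The same ratio was passed by 363 of the 16170 stop rows (2.24%), so the class II share lay below that of the stop rows. Above the 99th percentile of the stop rows stood 36 class II peptides (0.367%) and 1.91% of all rows without a stop. By the normal test 0 class II peptides were called below. At an unadjusted p under 0.05, 229 lay above and 72 below. Together these are fewer than the share of 0.05 of the class II peptides that chance alone would pass at that threshold. The 229 are therefore not read as an excess above the stop level. For comparison, peptides with T or S at position 6 and the same residues at position 8 were called in 1192 of 3298 cases (36.1%).

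The 69 called peptides stayed far from wild type. Their scores ran from -0.841 to -0.405 with a median of -0.759, and 5 of them lay more than 50% of the way from the stop level to wild type. None of the 9803 lay above the highest stop row, at -0.233. At the median error of the class II peptides, 0.0664, a score had to exceed the stop level by 0.208 to be called, so smaller gains were not detectable at this precision. At the border of the test, KNYKSLEV at -0.841 ± 0.0509 and KNYKWITV at -0.816 ± 0.0586 were called with ratios of 3.15, while KNYKPACM at -0.844 ± 0.0501 and KNYKELQV at -0.736 ± 0.0848 were not, with ratios of 3.13.

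The 3 highest scores among the called peptides came with larger errors than the next ones. KNYKEISI scored -0.405 ± 0.146, KNYKMIEL -0.441 ± 0.154 and KNYKNANM -0.459 ± 0.135, with ratios of 4.08, 3.64 and 4.01. Above these values stood 7, 8 and 8 stop rows. The next peptides had smaller errors. KNYKEYSV scored -0.476 ± 0.0653, a ratio of 8.04, and KNYKELSV -0.495 ± 0.0539, a ratio of 9.39. KNYKEITV scored -0.517 ± 0.0633, KNYKEIPV -0.569 ± 0.0676 and KNYKEASV -0.582 ± 0.0707. Each of these 5 carries E5 and V8, and the lowest ratio among them was 5.92.

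Further down, residues other than E appeared at position 5. KNYKCVQI scored -0.603 ± 0.101, KNYKSITV -0.620 ± 0.0591 and KNYKIYSV -0.657 ± 0.0713. KNYKTVSV scored -0.667 ± 0.0494, KNYKSARV -0.674 ± 0.0494 and KNYKHIRV -0.684 ± 0.0624. Of the 20 highest called peptides, only KNYKQVCV, at -0.699 ± 0.0788, kept the wild-type glutamine at position 5. The called peptides not yet named among these 20 carried E5: KNYKEYPV at -0.638 ± 0.0968, KNYKEAQV at -0.648 ± 0.0555, KNYKEIRV at -0.702 ± 0.0726, KNYKEVGV at -0.704 ± 0.0866 and KNYKEWTV at -0.722 ± 0.0621. Some peptides with large errors scored as high without being called, such as KNYKYMRF at -0.528 ± 0.164 and KNYKCWGV at -0.617 ± 0.131. At the other end, the lowest class II scores belonged to KNYKSACM at -1.34 ± 0.190, KNYKRIVM at -1.33 ± 0.191 and KNYKSVHM at -1.32 ± 0.182, none of which was called below the stop level.

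At position 6, isoleucine and alanine accounted for most calls. With I at position 6, 20 of 1166 peptides (1.72%) were called, and with A 20 of 1626 (1.23%). Tyrosine followed with 9 of 1194 (0.754%), W with 4 of 774 (0.517%), V with 6 of 1295 (0.463%) and L with 7 of 1658 (0.422%). Phenylalanine had 2 of 1042, led by KNYKLFFI at -0.777 ± 0.0608, and methionine 1 of 1048, KNYKRMGV at -0.736 ± 0.0699. All 8 shares lay below the 2.24% of stop rows. Grouped by side chain, 54 of 6793 peptides (0.795%) with an aliphatic residue and 15 of 3010 (0.498%) with an aromatic residue were called.

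At position 8, the wild-type valine carried 47 of the 69 calls. Of 1826 peptides with V8, 2.57% were called, a share below the 3.42% of all rows without a stop and near the 2.24% of stop rows that passed, against 0.607% of 2143 with I, 0.204% of 2455 with L, 0.128% of 1565 with M and 0.110% of 1814 with F. Medians moved less than shares, from -1.03 with V8 to -1.05 with M8. Taking positions 6 and 8 together, I6 with V8 had the highest share, with 15 of 215 called (6.98%). A6 with V8 followed with 14 of 335 (4.18%), Y6 with V8 with 5 of 210 (2.38%) and L6 with V8 with 6 of 327 (1.83%). F6 with V8 gave 1 call in 154 and M6 with V8 1 in 203.

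Positions 5 and 7 were free under the rule, and the called peptides were unevenly spread over them. Glutamate made up 2.89% of the class II peptides at position 5 and 26.1% of the called ones, with 18 of 283 called (6.36%). Threonine at position 5 gave 11 of 662 (1.66%), serine 10 of 674 (1.48%), histidine 7 of 610 (1.15%) and the wild-type glutamine 4 of 570 (0.702%). Only the share with E5 lay above the 3.42% of all rows without a stop. The shares with every other residue at position 5 lay below the 2.24% of stop rows. Aspartate, which shares the charge of glutamate, gave 0 of 375, and G, K, P and Y also gave 0. The highest score in the aspartate group was -0.741, for KNYKDIHI, which was not called.

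At position 7 the wild-type serine had the highest share, with 18 of 617 peptides called (2.92%), which lay between the 2.24% of stop rows and the 3.42% of all rows without a stop. Threonine followed with 11 of 595 (1.85%) and arginine with 7 of 612 (1.14%). The residues I, L, V and W had 0 calls at this position. Aliphatic residues (A, V, I, L, M) gave 5 of 2600 (0.192%) at position 7.

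The share called was higher the more of these residues a peptide combined. Among class II peptides with none of E, S or T at position 5, S or T at position 7 and V8, 9 of 5843 were called (0.154%). With 1 of these features it was 19 of 3301 (0.576%), with 2 of them 27 of 621 (4.35%), and with all 3 it was 14 of 38 (36.8%). The median score over these steps of the count went from -1.05 to -1.04, -1.001 and -0.846. This grouping was chosen after the values had been seen, from the same calls. The same steps were not counted over other rows without a stop, so they do not set class II peptides apart. Among the 51 peptides with E5 and V8, 14 were called (27.5%), and of the 232 with E5 and another residue at position 8, 4 were (1.72%). With E5, S or T at position 7 and V8, 6 of the 7 peptides measured were called. The other was KNYKELTV, at -0.814 ± 0.0667.

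Among peptides with more than 1 change, the share called was lower the more positions were changed. With 2 of the 4 varied positions changed, 16 of 240 class II peptides were called (6.67%), with 3 changed 37 of 2512 (1.47%) and with all 4 changed 16 of 7044 (0.227%). None of the 7 single substitutions measured was called. The 9 calls with none of the 3 features were KNYKMIEL, KNYKNANM, KNYKCVQI, KNYKHAMF, KNYKLFFI, KNYKFYQL, KNYKQVHI, KNYKQANI and KNYKCAPL. These are 0.154% of their group, below the share of stop rows that passed.

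Matched peptides that differ at 1 position gave the difference between T and a hydrophobic residue at position 6. Each class II peptide was set against the peptide with T at position 6 and the same residues elsewhere, which gave 8799 pairs built on 1621 peptides with T6. The T6 peptide was higher in 4368 pairs (49.6%) and the class II peptide in 8 (0.0909%) at an adjusted p under 0.05 over all pairs. The median of T6 minus class II was 0.216. Pairs that share a T6 peptide are not independent of each other.

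The difference was greatest with V8. With V8 the T6 peptide was higher in 1429 of 1647 pairs (86.8%), by a median of 0.632. With I8 it was higher in 63.5% of pairs, with L8 in 56.2%, with M8 in 20.5% and with F8 in 7.28%. The T6 peptides with M8 or F8 were themselves close to the stop level, and the median difference was 0.0906 with M8 and 0.0503 with F8. Split by the residue that replaced T, the share lay between 47.3% for Y and 52.1% for W.

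Of the 10 largest differences, 7 were in peptides with E5. KNYKETAV scored 0.0808 ± 0.0669, while KNYKELAV scored -1.27 ± 0.203 and KNYKEAAV -1.04 ± 0.0855. Among the others, KNYKFTSV exceeded KNYKFISV by 1.08 ± 0.218, KNYKCTAV exceeded KNYKCYAV by 1.08 ± 0.226 and KNYKHTAV exceeded KNYKHVAV by 1.05 ± 0.108. KNYKFISV scored -1.22 ± 0.204 and KNYKCYAV -1.17 ± 0.220, below the stop median of -1.001 and with large errors. Low scores of this kind, like that of KNYKELAV, enlarge these differences. KNYKCYAV shared its score and error exactly with KNYKEYFV and KNYKFLSV. A smaller difference was seen in KNYKETSV, which scored 0.0610 ± 0.0592. There Y6 lowered the score by 0.537 ± 0.0882, L6 by 0.556 ± 0.0801 and A6 by 0.643 ± 0.0923. Of the 69 called peptides 66 had a T6 partner. The partner was itself above the stop level in 61 of these (92.4%), against 47.9% of all pairs, and was higher than the class II peptide in 55. These groups are unlike at position 8: V8 was in 47 of the 69 called peptides and in 1647 of the 8799 pairs.

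In 8 pairs the class II peptide was the higher one. The largest such difference was KNYKNANM over KNYKNTNM, at -0.459 ± 0.135 against -0.920 ± 0.0616, a difference of 0.461 ± 0.148. KNYKHAMF scored -0.755 ± 0.0760 against -1.08 ± 0.0645 for KNYKHTMF, and KNYKLFFI -0.777 ± 0.0608 against -1.02 ± 0.0542 for KNYKLTFI. Only these 3 of the 8 class II peptides were called above the stop level. None of the 8 had V8, and in each of them the T6 peptide lay at -0.920 or below. Apart from KNYKNTNM, the T6 peptides lay below the stop median of -1.001.

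Exchanging V8 for another hydrophobic residue was tested in 5629 pairs with a class II residue at position 6. The V8 peptide was higher in 41 (0.728%) and the other in 1 (0.0178%), with a median difference of 0.0208. Where the V8 peptide was well above the stop level, single differences were larger than this median. KNYKELSV fell by 0.527 ± 0.0822 with L8 and by 0.481 ± 0.0997 with F8. KNYKEASV exceeded KNYKEASM by 0.494 ± 0.107, and KNYKEITV exceeded KNYKEITL by 0.435 ± 0.101. The exception was KNYKSLFI, which at -0.759 ± 0.0529 exceeded KNYKSLFV at -1.06 ± 0.0565.

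At position 5, E was set against the wild-type Q in all 245 class II pairs that had both, a comparison added after the values had been seen. Glutamate was higher in 5 pairs (2.04%) and Q in 0, with 27 and 0 at an unadjusted p under 0.05. The 5 were KNYKELSV, which exceeded KNYKQLSV by 0.409 ± 0.0748, KNYKEISI over KNYKQISI, KNYKEIPV over KNYKQIPV, KNYKEAQV over KNYKQAQV and KNYKEASV over KNYKQASV, by 0.304 to 0.552. KNYKEYSV exceeded KNYKQYSV by 0.330 ± 0.130, which did not pass in this comparison over all pairs.

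Over all 7367 pairs of Q5 with another residue, the other was higher in 1 (0.0136%), KNYKELSV over KNYKQLSV, and Q in 0, with 94 and 135 at an unadjusted p under 0.05. At position 7, S was higher in 42 of 8046 pairs (0.522%) and lower in 2 (0.0249%), with a median difference of 0.0217. Both comparisons over all pairs were added after the values had been seen. Among pairs in which at least 1 peptide was called, Q5 was higher than another residue in 33 of 105 (31.4%) and lower in 31 (29.5%). S7 was higher in 164 of 269 such pairs (61.0%) and lower in 21 (7.81%). A called peptide was required there, so these shares describe pairs selected by score and say nothing of a typical pair. Over all pairs, the S7 differences that passed included KNYKELSV over KNYKELIV, by 0.584 ± 0.0926, and KNYKEYSV over KNYKEYGV, by 0.605 ± 0.104. The 2 in the opposite direction were KNYKHATL over KNYKHASL, by 0.277 ± 0.0686, and KNYKSLFI over KNYKSLSI, by 0.262 ± 0.0713.

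The pairwise library read 295 of the class II tails in a separate experiment, 283 of them with V8. Its stop median was -0.893 over 874 rows and its wild-type tail scored 0.0314 ± 0.0140. Against this stop level 39 of the 295 tails (13.2%) were above it and 12 below, while 61.9% of all rows of that library and 16.1% of its stop rows passed above. The median error of the 295 was 0.103, and the share of class II tails again lay below that of the stop rows. Valine and alanine at position 6 gave the most calls, 8 of 41 and 8 of 43, and I, L, M, F, Y and W gave 3 to 5 each.

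With E5, S7 and V8 in the pairwise library all 8 residues of position 6 were measured and 7 were above the stop level. KNYKEISV scored -0.284 ± 0.178, KNYKEFSV -0.462 ± 0.109, KNYKEVSV -0.474 ± 0.0458 and KNYKELSV -0.561 ± 0.0446. KNYKEASV scored -0.615 ± 0.0461, KNYKEWSV -0.690 ± 0.0785 and KNYKEMSV -0.692 ± 0.0716. KNYKEYSV, at -0.675 ± 0.103, was not called there, but was called in the C-terminal library. Thus each of the 8 hydrophobic residues was above the stop level in at least 1 of the libraries when placed between E5 and S7-V8. For V, I, M, F and W this rests on the pairwise library alone, where 16.1% of stop rows passed the same cut. With Q5 it was 4 of 8, and with S5, T5 and H5, counted over both libraries in the same way, it was 4, 4 and 3. With I5 and V5 it was 2 and 1. In the pairwise library alone, A5 gave 2 of 8, Y5 2 of 7, C5 1 of 8 and D5 1 of 6. Y5 and D5 had 0 calls in the C-terminal library. The highest called tail of the pairwise library was KNYKYYSV, at -0.246 ± 0.137. The contexts had unequal numbers of measurements: the C-terminal library held 3 of the 8 residues with E5 and 7 with Q5.

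Over the 212 tails with a score in both libraries, the C-terminal library called 13, the pairwise library 25, and 5 were called by both. These 5 are 38.5% of the former and 20% of the latter. They were KNYKELSV, KNYKEASV, KNYKVASV, KNYKTASV and KNYKSISV. The counts of the libraries rest on unlike cuts and are not directly comparable. A call took a ratio of about 3.14 in the C-terminal library, while KNYKQMQV was called at 2.23 in the pairwise one. KNYKVASV scored -0.785 ± 0.0527 and -0.643 ± 0.0362, KNYKTASV -0.816 ± 0.0492 and -0.647 ± 0.0425, and KNYKSISV -0.788 ± 0.0591 and -0.669 ± 0.0755, the C-terminal value first. Across the 212 tails Pearson's r was 0.291 and Spearman's rho 0.258, and over the 64 with lower errors in both they were 0.477 and 0.474. These correlations are across peptides that share residues, not across independent samples.

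Single substitutions of T6 in the otherwise wild-type tail were read in up to 4 data sets. Among all rows without a stop, 74.7% of the PDZ3-CRIPT listing for PDZ3 residues 1 to 50 and 77% of the listing for residues 51 to 100 were above the stop level, which was at -0.796 in the former and -0.799 in the latter. T6I had the highest score of these substitutions in each of the 4. It scored -0.581 ± 0.0443 in the pairwise data, -0.615 ± 0.00586 in the listing for residues 1 to 50, -0.626 ± 0.00613 in the other listing and -0.688 ± 0.115 in the C-terminal library. It was called in all but the C-terminal library, where the ratio to the error was 2.72. T6F there scored -0.800 ± 0.0730 with a ratio of 2.74, so T6I and T6F did not differ beyond their errors. Nor did T6I and T6A, at -0.654 ± 0.0703, for residues 51 to 100. T6W had no score in the C-terminal library and T6A none for residues 1 to 50.

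T6V and T6Y were called in the same 3 data sets. For residues 1 to 50 both scored -0.722, with errors of 0.00616 and 0.00614, and for residues 51 to 100 they scored -0.714 ± 0.00651 and -0.725 ± 0.00640, so they did not differ beyond their errors. In the pairwise library T6V, T6Y and T6A scored -0.779 ± 0.0262, -0.779 ± 0.0494 and -0.781 ± 0.0242 and likewise had no order. T6A scored -0.886 ± 0.0527 in the C-terminal library, where it was not called, and -0.654 ± 0.0703 in the listing for residues 51 to 100, where it passed with a ratio of 2.07.

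T6M was called in none of its 4 data sets, and scored -0.796 ± 0.00649 and -0.821 ± 0.00732 in the listings. T6F was called for residues 1 to 50 only, at -0.777 ± 0.00785, and T6W for residues 51 to 100 only, at -0.773 ± 0.00704. T6L scored -0.974 ± 0.0106 for residues 1 to 50, below the stop level, and -0.771 ± 0.00718 for residues 51 to 100, above it.

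The PDZ3-CRIPT library placed these ligands in PDZ3 variants. Pairs of a PDZ3 substitution with a class II substitution at T6 numbered 4423 for residues 1 to 50 and 5951 for residues 51 to 100. They were above the stop level in 804 (18.2%) and 1228 (20.6%), while 74.5% and 76.9% of all pairs and 6.86% and 4.98% of stop rows were. Other substitutions of T6 gave 20.1% and 20.5%. T6I led with 291 of 623 (46.7%) and 476 of 872 (54.6%), followed by T6Y with 20.4% and 23.1% and T6V with 18.6% and 25.2%. T6M had 9.05% and 7.26%. T6A was present in 1 pair, for residues 1 to 50.

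The share of these pairs above the stop level was highest at PDZ3 residue H70 (numbered as in the table), the histidine at the start of the helix that faces the ligand side chain at position -2. There 68 of 115 pairs were called (59.1%), against 39 of 161 pairs (24.2%) of H70 substitutions with the other residues at T6. G20, the glycine that opens the loop binding the carboxyl end, followed with 69 of 119 (58.0%), and with 83 of 184 (45.1%) for other residues at T6. R66, S69 and E32 came next with 42.1%, 41.4% and 33.0%, and with 30.4%, 32.4% and 28.4% for other residues at T6. The median score of the wild-type ligand over these pairs was 0.0485 at R66, 0.0490 at S69 and 0.0281 at E32. At G20, R66, S69 and E32 the class II ligand was not higher than the wild-type ligand in any pair.

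In some PDZ3 variants the class II ligand scored above the wild-type ligand. In each PDZ3 variant the class II ligand was compared with the wild-type ligand in the same variant, a test added after the values had been seen. It was higher in 9 of 4409 pairs (0.204%) for residues 1 to 50 and lower in 4134 (93.8%), and higher in 15 of 5950 (0.252%) for residues 51 to 100 and lower in 5642 (94.8%). All 15 of the latter were at H70. The other 9 were spread over G27, F35, I25, G22 and I34, each with at most 3. As most pairs were lower, the adjustment was mild, and G27I with T6M passed at 0.144 ± 0.0697. How many of these 9 chance alone would give was not tested. In I25H, G22V and F35P the wild-type ligand itself scored -0.771, -0.775 and -0.777, near the stop level of -0.796. In the remaining variants of these 9 it scored from -0.756 to -0.605. Of the 115 pairs at H70, 22 were lower and 78 were in neither group.

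With H70P the wild-type ligand scored -0.507 ± 0.0263, T6I -0.208 ± 0.0461, T6F -0.239 ± 0.0504, T6Y -0.259 ± 0.0428 and T6W -0.284 ± 0.0399, all 4 higher than the wild-type ligand. With H70G the wild-type ligand scored -0.589 ± 0.0208, while T6Y reached -0.270 ± 0.0477 and T6W -0.281 ± 0.0376. The difference was 0.319 ± 0.0520 for T6Y. T6I in the same variant scored -0.670 ± 0.0980, which did not pass against the wild-type ligand. The ligands above wild type in H70G were the 3 aromatic ones, T6F, T6W and T6Y.

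H70A, like H70P, had 4 ligands above the wild-type ligand, which scored -0.549 ± 0.0160: T6I at -0.363 ± 0.0382, T6Y at -0.374 ± 0.0418, T6W at -0.389 ± 0.0429 and T6F at -0.414 ± 0.0515. These 4 include aliphatic and aromatic residues. In H70K the 1 ligand above wild type was T6I, at -0.493 ± 0.0789 against -0.738 ± 0.0514.

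In H70V, H70I and H70L the class II ligand with the highest score was an aliphatic one. That is not particular to them. Among the other H70 variants with a called ligand, it was aliphatic in H70A, H70P, H70K, H70S, H70T, H70Q, H70R, H70F and H70M. It was aromatic in H70G, H70C and H70D. In H70I the aromatic T6Y scored -0.296 ± 0.0431. In H70V the wild-type ligand scored -0.333 ± 0.0138, T6I -0.225 ± 0.0345, T6V -0.272 ± 0.0374 and T6M -0.306 ± 0.0383, of which T6I was higher than the wild-type ligand. In H70I, T6V scored -0.215 ± 0.0405 against -0.364 ± 0.0177 for the wild-type ligand, and in H70L, T6L scored -0.234 ± 0.0429 against -0.349 ± 0.0151, both of which passed. With H70P, H70V, H70I, H70L, H70C and H70T all 7 ligands measured were above the stop level. With H70E, H70N, H70W and H70Y none of the 5, 4, 2 and 3 ligands measured was. Precision differed between these groups, with errors of 0.0345 to 0.0877 in the former and 0.0813 to 0.215 in the latter. H70N with T6I stood 0.213 above the stop level without a call, at an error of 0.117. H70P with T6L was called at 0.208 above it, at an error of 0.0718. In H70Q, where the wild-type ligand kept a score of -0.0973 ± 0.0206, all 7 class II ligands were lower.

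Outside H70 the largest difference in favour of a class II ligand was at G27. In G27V, T6M scored -0.312 ± 0.0668 against -0.723 ± 0.0232 for the wild-type ligand, a difference of 0.411 ± 0.0707. At G20 the highest pair was G20M with T6I, at -0.257 ± 0.0650, but the wild-type ligand scored 0.165 ± 0.0163 in that variant and remained higher.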

How the data were processed

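The authors deposited 1 fitness score and 1 error (sigma) per amino acid sequence, per the file headers, merged over 3 input and 3 output samples. The score is on an unstated log base, and the error is on the scale of the score. The kind of error and any filter on counts are not given in the sources used here; cutadapt and FastQC are named in the submitters' processing notes. The planned tests for such tables were used. Class II peptides were taken from the C-terminal table by residues at positions 6 and 8. Each score minus the stop median was divided by the root of the squared error plus the squared standard error of that median, with two-sided normal p-values and Benjamini-Hochberg adjustment over all rows without a stop (threshold 0.05). Matched pairs were compared with summed squared errors, adjusted within each kind of exchange. Every row of the N-terminal table ends in the wild-type residues, so it was not used here. The 2 listings of the PDZ3-CRIPT table were separated by row order and PDZ3 residue. Peptides named are the 20 highest called, the T6 single substitutions, the 3 lowest, the largest matched differences and calls shared with the pairwise table; others were chosen after their values were seen. Members and lists were chosen with earlier results of these data known. Python 3.11.15, numpy 2.4.6, pandas 2.3.3 and scipy 1.17.1 were used.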

Additional observations from a re-analysis of the deposited data

Results flagged for a closer look

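Of the 212 class II tails in both CRIPT libraries, 1 differed between them relative to the stop level of each. KNYKYMSV scored -0.425 ± 0.0814 in the pairwise and -0.985 ± 0.0577 in the C-terminal library, a difference of 0.452 ± 0.0998 after subtraction of the stop medians. KNYKYYSV, with -0.246 ± 0.137 and -0.995 ± 0.136, had a difference of 0.641 ± 0.193, which did not pass the test. T6L was the 1 of 7 single substitutions that differed between the PDZ3-CRIPT listings, by 0.207 ± 0.0128 relative to their stop levels, with the value for PDZ3 residues 51 to 100 the higher. The cause was not tested.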

How the results depend on the processing

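No paired analysis was possible because the tables hold values merged over replicates, and for the same reason no replicate could be left out. The 69 class II peptides above the stop level became 43 at an adjusted p under 0.01, 45 with only stops at position 5 as the level, 128 with only stops at position 8, 11 with the spread of the stop rows added to the error, 12 with Bonferroni adjustment, 36 above the 99th percentile of stop rows (1.91% of all rows without a stop lay there) and 0 above the highest stop row. The 3471 calls among all rows without a stop became 1289, 1418, 1938 and 189 with the added spread, Bonferroni, the percentile and the highest stop row. V8 made up 63.3% to 100% of the class II calls under the settings that left any, and E5 16.9% to 63.6%. Under both the added spread and Bonferroni, 9 peptides were called, all with V8 and 6 with E5. With the 50% of rows with the lower errors, 8 of the 20 highest peptides could be tested and all 8 were called, and the pairwise library called 22 of the 87 tails it then tested. Fewer sequences were tested under that setting: in the PDZ3-CRIPT table it called 175 of 226 class II pairs for residues 1 to 50 and 17 of 17 for residues 51 to 100. For matched pairs it called T6 higher in 2171 of 3804, Q5 higher in 14 and lower in 13 of 42 selected pairs, S7 higher in 62 and lower in 8 of 110 selected pairs and in 16 of 3324 over all pairs, and E5 over Q5 in 3 of 53. A threshold of 0.01 left 737 of the 1228 PDZ3-CRIPT calls, 4 of the 8 class II peptides above T6, 17 of 41 and 0 of 1 at V8, 11 and 15 at Q5, 79 and 8 at S7, 22 and 0 at S7 over all pairs, and 2 for E5 over Q5. The errors were smaller among peptides that were called (median 0.0590, others 0.0665).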

Other observations

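The pairwise library also held 548 peptides with a class II residue at position 6 and 1 substitution at positions 1 to 4. Of these, 105 (19.2%) were above the stop level, against 16.1% of stop rows. A6 gave 19 of 76 (25%), W6 17 of 75 (22.7%), L6 17 of 76 (22.4%), V6 16 of 76 (21.1%), I6 12 of 58 (20.7%), Y6 11 of 59 (18.6%), M6 9 of 76 (11.8%) and F6 4 of 52 (7.69%). Some PDZ3-CRIPT pairs shared their score and error exactly, such as H70E with T6I and H70E with T6V, both at -0.901 ± 0.211. So did some class II peptides of the C-terminal library, such as KNYKELCV and KNYKQICV, both at -1.21 ± 0.219. These were noticed after the values had been seen, and the cause was not tested.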
